A study of Mus musculus with 2 samples.

Results

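The Mir29 family of the mouse has 4 genes, Mir29a, Mir29b-1, Mir29b-2 and Mir29c, and all 4 were found among the 2202 miRNA genes counted in adrenal gland. They were chosen by gene symbol, through the Ensembl identifiers of GENCODE M21. The rule uses no measured value, but earlier results of these data were known when it was set. A microRNA (miRNA) is a short RNA that is cut from a hairpin precursor, loaded into an Argonaute protein and guided to messenger RNAs by its seed, bases 2 to 8 from the 5′ end. The miR-29 family is best known for lowering messenger RNAs of extracellular matrix proteins, among them collagens, elastin and fibrillin, and its loss is a feature of fibrosis in heart, lung, liver and kidney. In the adrenal gland, collagen and laminin form the capsule and the sheaths around the cords of steroid-producing cells and their capillaries.

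The series holds 1 group of 2 libraries of small RNA from adrenal gland tissue of C57BL/6J mice, an inbred strain. The labels call the mice wild type, name no treatment, give age and stage as unknown, and record sex as not collected although a free-text label says male. The replicates carry separate biosample records under 1 donor record, which leaves unsaid whether 2 animals were used. All p-values here say only whether these libraries differ beyond counting noise, and such a difference may be technical. There is no second condition, so every test below compares 2 libraries of the same tissue. No messenger RNA or protein was measured, so whether the family restrains the matrix in this tissue was not tested.

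The family falls into 2 gene clusters. On mm10, Mir29a (ENSMUSG00000065610.1, chr6:31062660-31062747) and Mir29b-1 (ENSMUSG00000065604.2, chr6:31063023-31063093) lie on the minus strand of chromosome 6 with 275 bases between them. No annotated gene overlaps Mir29a, and Mir29b-1 overlaps the end of the long noncoding RNA Gm27019 by 2 bases. Mir29b-2 (ENSMUSG00000065412.3, chr1:195037040-195037120) and Mir29c (ENSMUSG00000065548.1, chr1:195037547-195037634) lie on the plus strand of chromosome 1 with 426 bases between them. Both lie in an exon of the noncoding RNA A330023F24Rik on the same strand, and opposite an exon of Cd46, a complement regulator. Each cluster therefore carries 1 copy of Mir29b beside a gene with a mature form of its own.

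The mature forms are shown because their letters decide which locus a read can be given to. RefSeq (GRCm38.p6) held all 4 hairpins, each with a 5p and a 3p mature form. The 3p forms come first, and capitals mark the seed.
miR-29a-3p: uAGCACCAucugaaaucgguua
miR-29b-3p: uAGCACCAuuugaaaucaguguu
miR-29c-3p: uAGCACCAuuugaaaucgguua
The 3 forms share the seed AGCACCA, and no mature form outside the family in the RefSeq table has it. With positions counted from 1 at the 5′ end, miR-29a-3p and miR-29c-3p differ by 1 substitution, C10U, over 22 bases. From miR-29b-3p to miR-29c-3p there are 3 substitutions, A18G, G21U and U22A, all near the 3′ end.

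The 5p forms differ in their seeds as well, again in capitals.
miR-29a-5p: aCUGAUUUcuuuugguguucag
miR-29b-1-5p: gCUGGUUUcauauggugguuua
miR-29b-2-5p: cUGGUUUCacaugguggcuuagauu
miR-29c-5p: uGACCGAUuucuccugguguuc
The 5p forms of the copies of Mir29b begin 1 base apart on the hairpin, which shifts the seed, and match at 19 of the 21 positions they have in common. Outside the family, Mir6338 was the only gene with one of these 5p seeds, that of miR-29b-2-5p.

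The hairpins of the Mir29b copies show why their counts need care. Capitals mark the mature forms, 5p first.
Mir29b-1: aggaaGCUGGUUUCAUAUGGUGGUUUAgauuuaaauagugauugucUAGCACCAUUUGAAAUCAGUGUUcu
Mir29b-2: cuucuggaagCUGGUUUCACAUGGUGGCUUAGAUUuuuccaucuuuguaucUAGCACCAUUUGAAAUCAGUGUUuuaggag
The 3p form is identical in both, base for base over 23 bases. A read of miR-29b-3p that ends where the mature form ends matches both loci. The tables give reads that mapped to several places a summary line of their own, and it is assumed here, since no source used states it, that such reads were counted at no gene. A read must run on by 1 base at its 3′ end, or by 3 bases at its 5′ end, before the loci differ. Under that assumption and with exact matching, reads that stay within miR-29b-3p could not enter the counts of Mir29b-1 or Mir29b-2. These counts could hold 5p reads, 3p reads with bases beyond the mature ends, and reads from the rest of the hairpin. How many miR-29b-3p reads stand in the summary line is not given, so the level of miR-29b-3p cannot be read from these counts. RefSeq mature forms were matched for 958 of the 2202 genes, and the classes that follow cover only these. Of all 2202 genes, 767 had a count in at least 1 library. Of 35 matched genes with no mature form of their own in the RefSeq table, 26 had no count. Another 5 were detected, with a median of 18.3 CPM and a highest mean of 1422 CPM. Of 56 genes with some forms shared, the class of both Mir29b copies, 7 had no count. In that class 29 were detected, with a median of 151 CPM. Of 867 genes with no shared form, 308 had no count and 196 were detected, with a median of 276 CPM. The effect of sharing on a count was not tested. The deposited tables do not separate the arms.

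The other forms can be told apart among RefSeq hairpins, but the genome was not searched. Among all RefSeq hairpins, the first 10 bases of miR-29a-3p occur in no hairpin but its own. A read of miR-29c-3p has to reach base 18 before it differs from miR-29b-3p. In windows of 20 bases, Mir29a shared none of its 69 windows with another hairpin and Mir29c shared 3 of 69, all with Mir29b-1. Mir29b-1 shared 9 of 52 windows with Mir29b-2 or Mir29c, and Mir29b-2 shared 6 of 62, all with Mir29b-1. Over whole hairpins Mir29a and Mir29c were 78.0% identical, the Mir29b copies 73.2%, and Mir29a and Mir29b-1, which lie side by side, 60.4%.

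**Figure D1:**
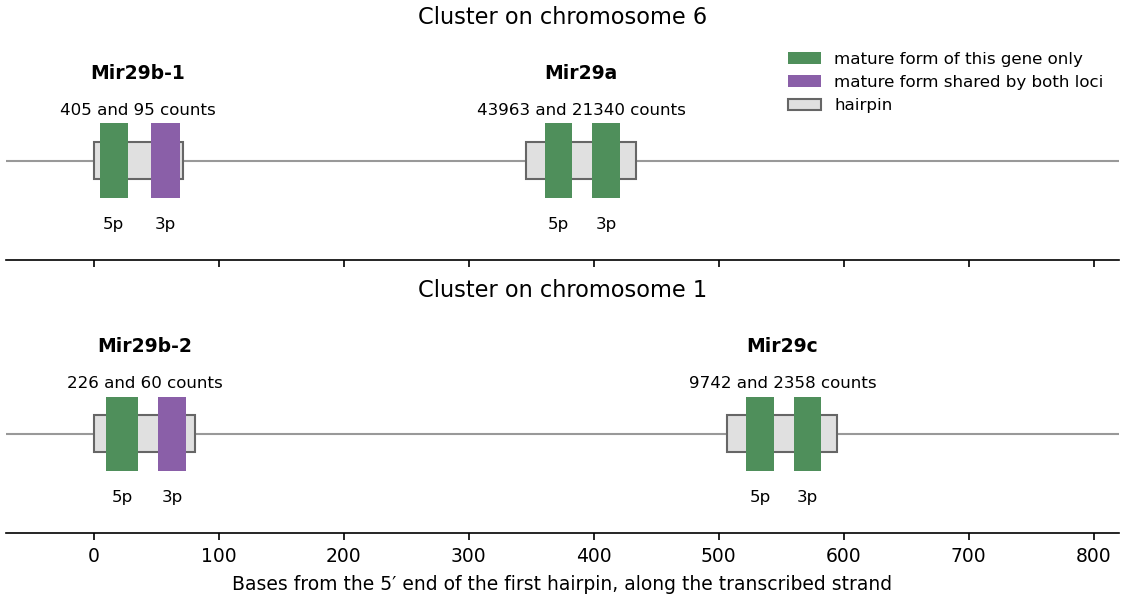
Both Mir29 clusters drawn to scale from the 5′ end of the first hairpin, in bases along the transcribed strand, with hairpins in grey, mature forms of 1 gene in green and the form shared by both loci in purple. The numbers are sense counts in replicate 1 and replicate 2; in each cluster the gene with the shared 3p form has the lower counts.

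Sense reads assigned to miRNA genes numbered 10263894 in replicate 1 and 3525666 in replicate 2, and levels are these counts scaled to a common total (CPM). Reads without a match made up 13.8% of replicate 1 and 41.4% of replicate 2. Of the mapped reads, 37.8% and 38.8% matched several places. The limit that a count of 0 allows, 3 counts, came to 0.292 CPM in the first library and 0.851 CPM in the second. Intervals on single values are 95% Wilson intervals and cover counting error only, since copies made by PCR cannot be told from separate molecules. The miRNA markers of adrenal cell types were present, with the neuroendocrine list (4 genes) summing to 73420 and 80086 CPM and endothelial Mir126a at 89916 and 95595 CPM. Most of the neuroendocrine sum was Mir375, at 68022 and 76044 CPM. The smooth muscle and fibroblast list (6 genes) summed to 26253 and 27523 CPM. Most of that sum was Mir143, at 24738 and 25539 CPM, and 5 of the 6 genes reached 10 CPM in both replicates. Markers of muscle summed to 2.14 and 2.55 CPM. Of these 5 genes, the 4 at 0 are both copies of Mir1a and both of Mir133a, which share mature forms, so their zeros set no limit on muscle miRNA. Liver Mir122 was at 104 and 97.6 CPM. Of these lists the one for red blood cells (2 genes) lay furthest apart, with 8357 and 1804 CPM, and the leukocyte list (4 genes) had 681 and 984 CPM. The part of blood content and of unmapped reads in the differences below was not tested.

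All 4 genes were detected, here meaning 10 CPM or more in both replicates, which 267 of the 2202 miRNA genes (12.1%) reached. The family together took 0.529% of assigned counts in replicate 1 (interval 0.525% to 0.534%) and 0.677% in replicate 2 (0.668% to 0.685%), a mean of 0.603% ± 0.104 (SD, n = 2). Nearly all of it was Mir29a and Mir29c. No member had a read on the opposite strand in either replicate, so the counts without regard to strand were the same as the sense counts.

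Mir29a, whose 3p form differs from that of Mir29c by a single base, led the family. It had 43963 counts (4283 CPM) in replicate 1 and 21340 counts (6053 CPM) in replicate 2, a mean of 5168 ± 1251 CPM. It ranked 35 and 28 among all miRNA genes and held 80.9% and 89.5% of the family's counts. As a scale, the most abundant gene, Mirlet7g, had 142729 and 105838 CPM.

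Mir29c, the leading gene of the chromosome 1 cluster, had 9742 counts (949 CPM) in replicate 1 and 2358 counts (669 CPM) in replicate 2, a mean of 809 ± 198 CPM. Its ranks were 73 and 83, and its share of the family was 17.9% and 9.89%. Mir29a was high in replicate 2 and Mir29c high in replicate 1, and the lowest Mir29a value was above the highest Mir29c value.

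Mir29b-1 had 405 counts (39.5 CPM, interval 35.8 to 43.5) in replicate 1 and 95 counts (26.9 CPM, 22.04 to 32.9) in replicate 2. Mir29b-2 had 226 counts (22.02 CPM, 19.3 to 25.1) and 60 counts (17.0 CPM, 13.2 to 21.9). Their means were 33.2 ± 8.85 and 19.5 ± 3.54 CPM, and their shares of the family's counts were 0.745% and 0.416% in replicate 1 and 0.398% and 0.252% in replicate 2. The lower Mir29b-1 value stood above the higher Mir29b-2 value, but the count interval of the first (from 22.04) reached into that of the second (to 25.1). Within each replicate Mir29b-1 had the higher count of the copies. Reads within miR-29b-3p match both loci and may be in neither count, so this does not rank the output of the loci.

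The order from high to low was Mir29a, Mir29c, Mir29b-1 and Mir29b-2 in both replicates. A miRNA read covers one mature form whatever the hairpin's length, and dividing by the lengths of 88, 88, 71 and 81 bases left this order as it was, from 48.7 and 68.8 CPM per base for Mir29a to 0.272 and 0.210 for Mir29b-2. Neighbours in the order did not overlap between replicates, though with 2 libraries the spread of each gene rests on a single difference.

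**Figure D2:**
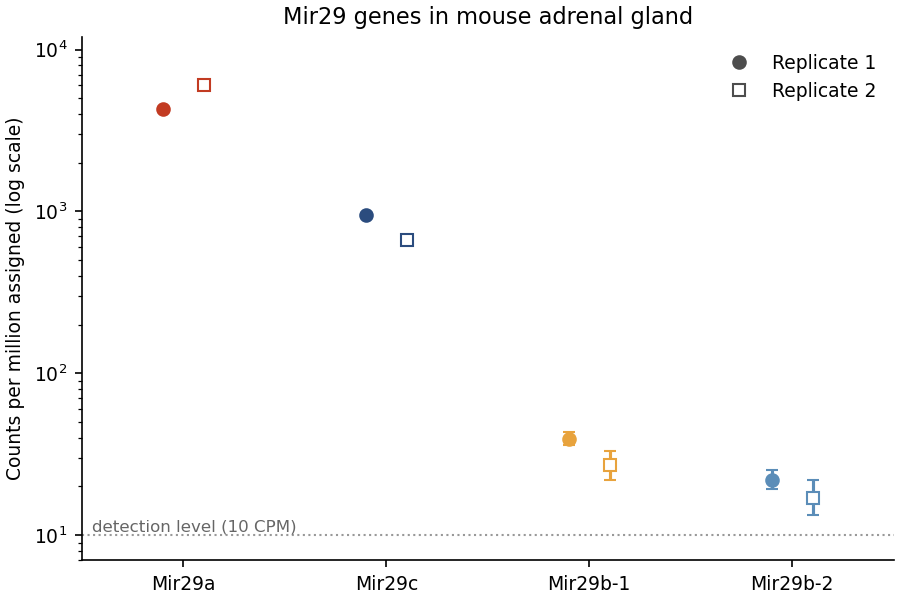
Level of each Mir29 gene in each replicate, in CPM on a log axis; bars are 95% Wilson intervals, which are narrower than the points for Mir29a and Mir29c. Mir29a, at 4283 and 6053 CPM, stands above Mir29c, at 949 and 669 CPM, and both Mir29b copies lie between 17.0 and 39.5 CPM.

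Ratios inside a library do not depend on its depth or scaling, so they show how the members stand to each other. In the chromosome 6 cluster, Mir29a had 109 times the counts of Mir29b-1 in replicate 1 (exact binomial interval 98.4 to 120) and 225 times in replicate 2 (184 to 278). In the chromosome 1 cluster, Mir29c had 43.1 times the counts of Mir29b-2 in replicate 1 (37.8 to 49.4) and 39.3 times in replicate 2 (30.4 to 51.7). The Mir29b count was thus far below its neighbour's at both loci, but these folds cannot be read as ratios of mature miRNA, since how miR-29b-3p reads that match both loci were counted is not stated.

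The replicates differed in the first of these ratios and not detectably in the second. The ratio of Mir29a to Mir29b-1 was 2.07-fold higher in replicate 2 (conditional exact interval 1.65 to 2.62). That of Mir29c to Mir29b-2 was 0.912 of its replicate 1 value, with an interval from 0.680 to 1.24 that includes no change.

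Between clusters the change was of similar size. Mir29a had 4.51 times the counts of Mir29c in replicate 1 (4.41 to 4.61) and 9.05 times in replicate 2 (8.67 to 9.45), a change of 2.01-fold (1.91 to 2.10). In counts, which may leave out reads within miR-29b-3p, the copies of Mir29b kept a ratio of 1.79 (1.52 to 2.12) and 1.58 (1.13 to 2.23). The change was to 0.884 of the first value, with an interval from 0.607 to 1.29. Mir29b-1 was thus on the side of Mir29c, higher in replicate 1, while Mir29a, its neighbour at 275 bases, was higher in replicate 2. As a sum, the chromosome 6 cluster had 4.45 times the counts of the chromosome 1 cluster in replicate 1 and 8.86 times in replicate 2, since Mir29a dominates it.

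**Figure D3:**
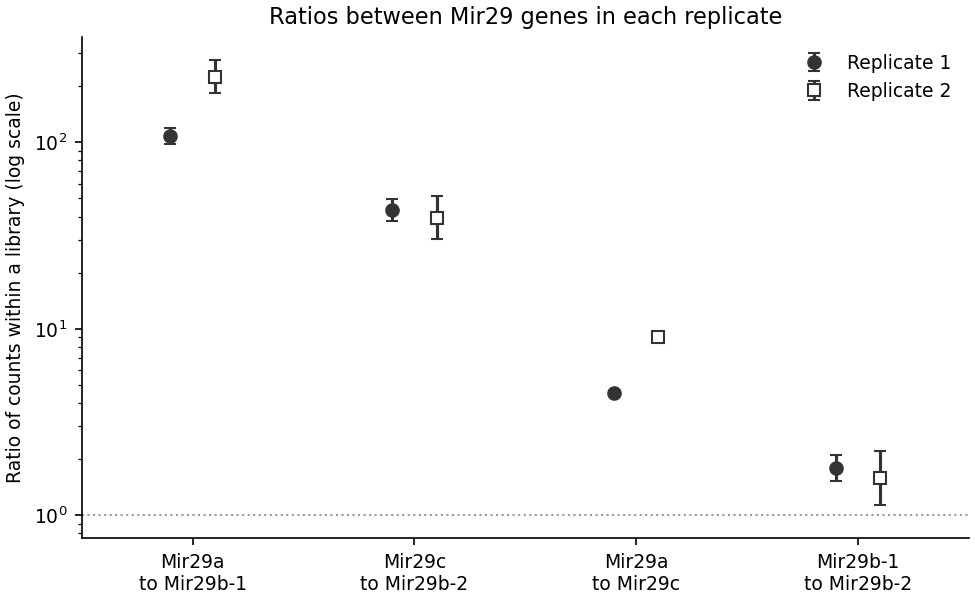
Ratio of counts between pairs of Mir29 genes within each library, on a log axis, with exact binomial 95% intervals (hidden by the points for Mir29a to Mir29c). Both ratios with Mir29a on top differ between replicates, 109 and 225 over Mir29b-1 and 4.51 and 9.05 over Mir29c, while the intervals of the other pairs overlap.

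Against all other miRNA genes, the replicates were compared with an exact two-sided binomial test per gene, scaled by TMM and adjusted by the Benjamini-Hochberg method over the 443 genes with 10 or more counts. It called 52.8% of those genes, made up of 21.2% with the higher level in replicate 2 and 31.6% with the higher level in replicate 1. A call is thus common here and says only that the libraries differ beyond counting noise. Of the 4 members, 3 were called, Mir29a higher in replicate 2 and Mir29b-1 and Mir29c higher in replicate 1. Beside that background nothing is read from 3 calls among 4 genes.

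For Mir29a the log2 ratio of replicate 2 over replicate 1 was 0.48, with an interval from 0.46 to 0.51, or 1.40-fold, and its adjusted p was too small for the software to tell from 0. Mir29c had a log2 ratio of -0.52 (-0.59 to -0.46; exact binomial test, adjusted p = 2.93e-59), or 1.44-fold higher in replicate 1. Mir29b-1 had -0.56 (-0.91 to -0.24; adjusted p = 0.000979). For Mir29b-2 the value was -0.38, with an interval from -0.82 to 0.03 and an adjusted p of 0.120 by the same exact test, so at 226 and 60 counts a difference was not detectable. The median log2 ratio of all tested genes was -0.17, on the side of Mir29c and Mir29b-1.

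Differences of this size were common. Among 277 genes with a mean of 10 CPM or more the median gene lay 1.32-fold apart, 108 lay further apart than Mir29a, 95 further than Mir29c, 83 further than Mir29b-1 and 146 further than Mir29b-2.

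**Figure D4:**
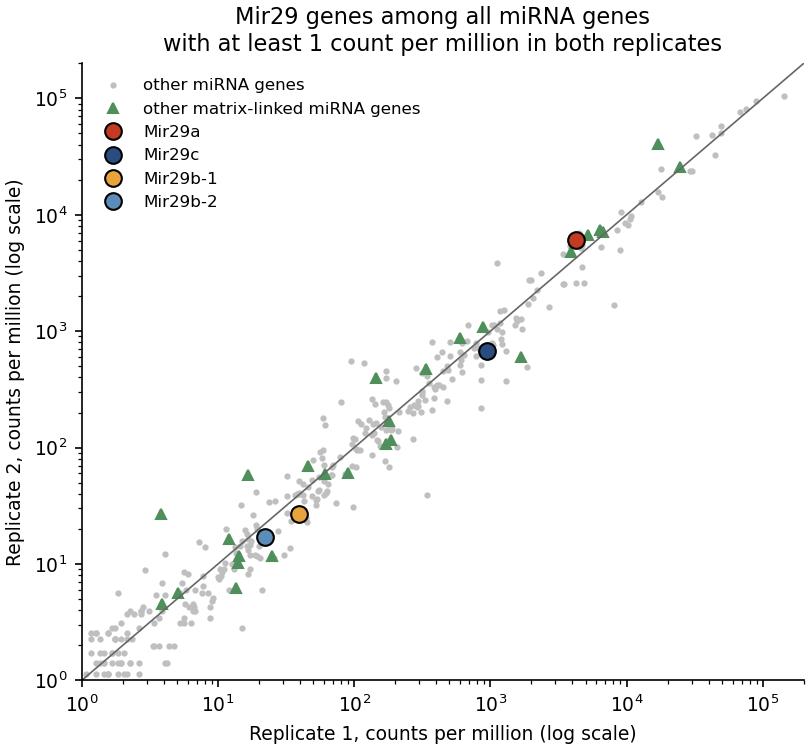
Level of every miRNA gene with at least 1 CPM in both replicates, replicate 1 on the x axis and replicate 2 on the y axis, both log scales in CPM, with the line of equal levels. Mir29a lies above the line and the other members below it, all within the cloud of other genes; triangles are the other miRNA genes linked to matrix and fibrosis.

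With 2 libraries of 1 tissue, likeness to a member can only be likeness of level. By mean CPM the genes next above Mir29a were Mir151 (5842 CPM) and Mir125a (5753 CPM), and next below were Mir191 (5086 CPM) and Mir744 (4921 CPM). Of these, Mir125a had the log2 ratio closest to that of Mir29a, 0.62. Mir29c stood between Mir146 (841 CPM) and Mir107 (841 CPM) above and Mir93 (788 CPM) and Mir455 (770 CPM) below, and the log2 ratios of Mir146 (-0.45) and Mir455 (-0.58) lay on either side of its own. Mir29b-1 had Mir449a (33.9 CPM) and Mir377 (33.8 CPM) above it and Mir708 (32.9 CPM) and Mir32 (32.7 CPM) below. Around Mir29b-2 stood Mir33 (20.2 CPM), an entry named n-TSaga9 (19.7 CPM), Mir194-2 (18.5 CPM) and Mir199b (18.3 CPM). The replicate values of every one of these neighbours overlapped those of the member it stood beside.

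Other miRNAs are also linked to matrix, TGF-beta signalling or fibrosis, and 34 of their genes were listed and found. That list was made with earlier results of these data known. In the adrenal gland 22 of the 34 were detected, beside 12.1% of all genes, and the list's median level was 47.6 CPM, where the median of all genes was 0. Mir143, Mir145a and Mir214 are also in the smooth muscle and fibroblast list. The matrix-linked list took 6.86% of counts in replicate 1 and 9.59% in replicate 2. It was led by Mir26b (17093 and 40184 CPM), from a family that targets TGF-beta signalling genes, by Mir143 (24738 and 25539 CPM) of smooth muscle, and by Mir30a (6408 and 7400 CPM) and Mir30d (6735 and 7064 CPM), whose family targets connective tissue growth factor.

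Mir29a stood below 5 of these genes in each replicate, the 4 named and Mir21a, a miRNA that rises in fibrosis, at 5213 and 6674 CPM. Mir29c stood below 7 of them in replicate 1 and 8 in replicate 2. Mir214, a stromal miRNA gene, had 595 and 881 CPM, below Mir29c in replicate 1 and above it in replicate 2. The Mir29b copies stood among the lower detected genes of the list, below 17 or more of the 34. The genes without a count were Mir133a-1, Mir133a-2 and Mir19b-2. They have mature forms with copies at other loci, so these zeros set no limit on the levels of those forms.

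Of the 27 list genes tested between the replicates, 14 were higher in replicate 2 and 6 higher in replicate 1, beside 21.2% and 31.6% of all genes. Their median log2 ratio was 0.19, against -0.17 for all tested genes. Mir26b (log2 ratio 1.22) and Mir101a (1.42), known for lowering the chromatin silencer Ezh2, were on the side of Mir29a, and Mir34a (-1.51), a target of p53, was on the side of Mir29c. Nothing is read from the direction, since both libraries are of the same group.

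**Figure D5:**
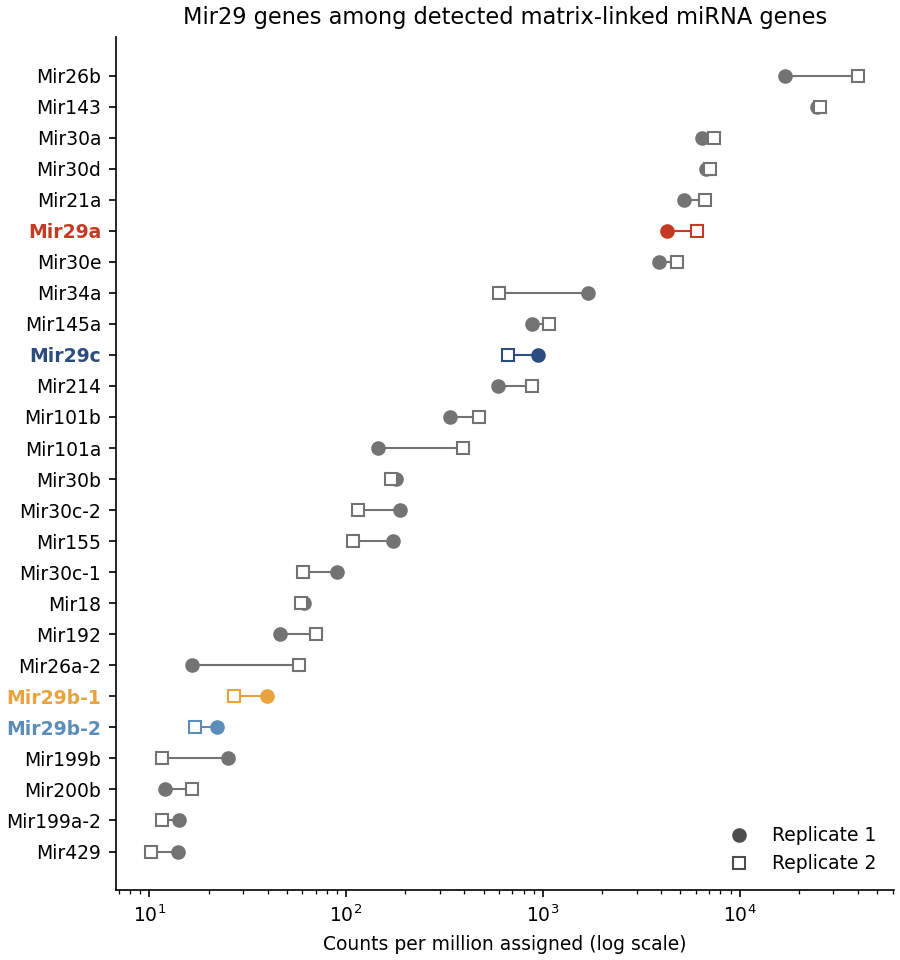
Levels of the 4 Mir29 genes (coloured names) and of the 22 detected genes of the matrix-linked list, in CPM on a log axis, ordered by mean; filled circles are replicate 1, open squares replicate 2, joined by a line. Mir29a stands sixth, below Mir21a, Mir29c stands below Mir145a, and the Mir29b copies stand near the lower end.

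Words that pair with the family's seed were also looked for in the annotation of matrix genes, apart from the counts. The 8-base word that pairs with the seed and is followed by A, TGGTGCTA, was searched on the sense strand of the longest annotated 3′ untranslated region of each protein-coding gene in GENCODE M21. Of 36 matrix and fibrosis genes, listed because they are known or likely targets, 18 held it, and so did 2.86% of all 21028 genes with such a region. Lengths were alike, with a median of 1150 and 961 bases, and there were 0.434 and 0.0203 matches per kilobase. With the shorter words TGGTGCT and GGTGCTA, which overlap the longer one, 32 of the 36 had a match and 16.0% of all genes. The list was not drawn independently of what is known of miR-29, so its count is a description.

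Col4a5, of basement membrane collagen, held 3 matches, and Col5a1, elastin (Eln) and the crosslinking enzyme Loxl2 held 2 each. Examples of the first match are shown in DNA letters of the transcript, with the 8-base word in capitals, for the main fibrillar collagens, for elastin and for fibrillin.
Col1a1, chr11:94952524-94952553, plus strand: tgggaaggaatttcTGGTGCTAtagaagct
Col3a1, chr1:45348968-45348997, plus strand: tcaaaatgtctcaaTGGTGCTAtaataaat
Eln, chr5:134703728-134703757, minus strand: gacctcatcaacgtTGGTGCTActgcttgg
Fbn1, chr2:125301165-125301194, minus strand: ttctgttgtctgttTGGTGCTAgtaaattc
The seed these words pair with is the one all 3 of the family's 3p forms have. Whether any of these messenger RNAs is bound or lowered in the adrenal gland was not measured.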

How the data were processed

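Small RNA libraries of 2 adrenal gland replicates were analysed, with the group and replicate numbers taken from the labels. The authors deposited raw counts per miRNA gene, with 1 table per library, mapped to mm10 and counted over GENCODE M21, per the description files; the labels' protocols link a document on adapter trimming. The aligner and the counting tool, with their versions, were not given in the sources used here. The 3 value columns were taken, from their values, as counts without strand, sense and antisense; the sense column was used. The 4 summary lines stayed out of totals. CPM were computed over all genes. TMM factors came from edgeR 4.0.16 in R 4.3.3; log2 ratios had 0.5 counts added. The threshold was an adjusted p of 0.05. The test was checked on simulated counts that held counting noise only, as the test itself assumes. That check therefore says nothing on spread between real libraries. Python 3.11.15, scipy 1.17.1 and biopython 1.88 did the rest. Sequences came from RefSeq (GRCm38.p6); hairpins were compared with hairpins, not with the genome.

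Genes named are the members, their 2 neighbours in level each way, the 4 highest and the uncounted genes of the matrix-linked list, the markers, and genes sharing a seed; others were picked after their values were seen. The members and lists were chosen with earlier results of these data known. Alternatives were DESeq2 1.42.0 size factors, other minima, pseudocounts, columns and denominators, and each replicate left out.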

Additional observations from a re-analysis of the deposited data

How the results depend on the processing

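Over 71 alternatives to 16 results, no direction turned and no member's replicate ratio changed its side of the threshold. Many of the 71 could not have shown a change, so their number is no measure of robustness. Levels have no direction, and with 2 replicates either one alone always lies within the SD of their mean. The count minimum leaves a member's ratio unchanged, and added counts do not enter its p. Without antisense reads, ratios within a library are the same in both columns. With all mapped reads as the denominator the levels fell, to 0.345% of reads for the family and to 2952 (Mir29a), 464 (Mir29c), 19.0 (Mir29b-1) and 11.2 (Mir29b-2) CPM, because unassigned reads enter the total. At a detection level of 100 CPM, 14 genes of the matrix-linked list were detected. The adjusted p of Mir29b-2 ran from 0.0930 to 0.246 and that of Mir29b-1 from 0.000711 to 0.00601 over the alternatives (exact binomial test). With DESeq2 size factors 228 genes differed between replicates, and 225 to 231 under the others. Single replicates gave the family 0.529% and 0.677%. No paired analysis was possible because the series has 1 group. In replicate 2, Mir29b-1 had 95 counts and Mir29b-2 had 60, and the part of depth in their results was not tested.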

Other observations

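Pairs like those of the Mir29 clusters were looked for after the values above were seen. A pair was taken where 2 detected miRNA genes lie on the same strand within 10000 bases, one with mature forms of its own only and the other with a form that another locus also makes. RefSeq mature forms were matched for 230 of the 267 detected genes (86.1%). There were 18 such pairs, some of which share a gene. The gene with its own forms had the higher count in both replicates in 12 of them. The median ratio, 11.7, lay in a gap between 2 pairs and is typical of neither. Above the gap was Mir29c over Mir29b-2 (43.1 and 39.3), and below it Mir192 over Mir194-2 (1.79 and 6.18). Mir29a over Mir29b-1 was the third highest, after Mir23b over Mir24-1 (1009 and 1001) and Mir23a over Mir24-2 (243 and 156), and Mir29c over Mir29b-2 was the ninth. The order was the other way in both replicates for Mir92-1 with Mir18 and Mir20a, for Mir92-2 with Mir20b and Mir106a, and for Mir16-2 with Mir15b, and it turned between replicates for Mirlet7f-2 with Mir98.

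Detected genes that have a seed in common and only mature forms of their own made 70 pairs. The log2 ratios between replicates lay a median of 0.39 apart within a pair, or 1.31-fold. Mir29a and Mir29c lay 1.00 apart, and 10 of the 70 pairs lay further apart, Mir195a and Mir15b the furthest at 2.34. Pairs of a large family share genes and are not independent, and no test was made.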
